A study of Mus musculus with 217 samples.

Results

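The effect of mutant huntingtin (m*Htt*) on the cerebral cortex of 12-month-old mice was measured by RNA sequencing in LacQ140 mice kept on IPTG throughout (LacQ140) against WT mice given IPTG over the same time (WT + IPTG). The 20 libraries, 10 a group and each 5 females and 5 males, were taken by their tissue, age, genotype and treatment labels from 217 libraries of striatum and cortex. LacQ140 mice carried 1 *Htt* allele with an expanded CAG repeat and *Lac* operators in its promoter (Hdh(LacO-140Q/+):beta-actin-LacIR tg) and WT mice carried none (Hdh(LacO-+/+):beta-actin-LacIR tg). All mice were on C57BL/6 and carried the *Lac* repressor (LacIR), which the β-actin promoter drives throughout the body. IPTG, a lactose analog, lifts repressor from operator and was given from embryonic day 5, so that m*Htt* was not repressed in the LacQ140 mice for nearly their whole life. The other 40 cortex libraries of this age, in the same fit, were 10 of WT mice without IPTG (WT) and 10 each of LacQ140 mice never given IPTG (LacQ140_A) or withdrawn from it at 2 months (LacQ140_2M) or 8 months (LacQ140_8M). The allele was made in ES cells of 129 origin and crossed to C57BL/6J, so the chromosome around *Htt* can differ between genotypes beyond the repeat.

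Huntingtin is a large, ubiquitous scaffold protein, and its expanded polyglutamine form causes Huntington's disease. The spiny neurons of the striatum are affected first and most, and cortical neurons that project to them follow. Loss of neuronal signaling genes, altered lipid and myelin genes in oligodendrocytes and disturbed protein folding have all been described in the brains of HD mouse models.

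Summed counts lay between 33391114 and 41062968 in the LacQ140 libraries and between 35689709 and 43217447 in the WT + IPTG libraries. All 60 cortex libraries matched their sex labels. Markers of cortical projection neurons (16 of 16 tested) summed to between 2527 and 4191 CPM in WT + IPTG and between 3019 and 3985 CPM in LacQ140, and none of the 16 was at 0 in all 20 libraries. Markers of striatal spiny neurons, all 13 detected, summed to between 294 and 456 CPM in WT + IPTG and between 328 and 407 CPM in LacQ140. The replicates of a group are labelled as separate mice.

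The number of genes called depended on the fit. Of 34493 genes with at least 1 count, 31 (0.0899%) were called, meaning an adjusted p under 0.05 in edgeR's quasi-likelihood test and a change of at least 20%. Of these 8 (0.0232%) rose and 23 (0.0667%) fell. With only both compared groups in the fit 441 genes were called, with DESeq2 64, with limma voom 75 and with the filterByExpr filter 55. These held all 31 genes with DESeq2 and with both groups alone, 30 of them with the filter and 28 with voom. Without adjustment, 2995 genes had a p under 0.05, or 8.68% of the genes tested. Among the 31, 26 were annotated as protein coding. The count moved with single libraries. Leaving out M1 of WT + IPTG (male mouse 1 of that group) gave 15 calls. It was 16 without WT + IPTG F5 or LacQ140 F1, and 17 without WT + IPTG F4, LacQ140 F4 or LacQ140 F5. It was 19 without LacQ140 M1 and 47 without WT + IPTG M5. The 10 genes with the smallest p were called in each of these 20 fits, while *Hspa5*, *Camk2n1* and *Srarp* were called in 6 of them, *Schip1*, *Aldoc* and *Gm2446* in 7 and *Homer1* and *Gm46447* in 9. Of 640 values of named genes with 1 library left out, 182 lost the call.

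*Htt* itself is measured as the sum of the normal and the mutant allele. It had a median of 26.0 CPM in WT + IPTG, from 17.4 to 34.2 CPM, and a median of 23.4 CPM in LacQ140, from 18.2 to 31.5 CPM. The groups overlapped over most of their range. The log2 fold change was -0.14 ± 0.13 (SE; adjusted p = 0.786, n = 10 a group, edgeR), and its sign differed between the sexes, at 0.13 in females and -0.40 in males. The means of the lowering groups were 17.0 CPM in LacQ140_A, 17.7 CPM in LacQ140_2M and 18.0 CPM in LacQ140_8M.

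The gene with the smallest p was *Abhd1*, which encodes a hydrolase of the α/β fold family and lies on chromosome 5 (positions 30950066 to 30955091, GRCm38), 3.81 Mb from *Htt*. It ranged from 1.95 through a median of 2.21 to 6.08 CPM in WT + IPTG and from 5.03 through 7.01 to 7.72 CPM in LacQ140. The single WT + IPTG library inside the LacQ140 range was F2, and the next highest WT + IPTG value was 3.47 CPM. The log2 fold change was 1.28 ± 0.14 (adjusted p = 8.0e-09). The striatal library of the F2 mouse also stood at the LacQ140 level for this gene, at 7.75 CPM against 5.75 to 9.72 CPM in LacQ140 striatum. *Abhd1* was as high in the groups with lowered m*Htt*, whose means were 6.64, 6.23 and 6.99 CPM in LacQ140_A, LacQ140_2M and LacQ140_8M. Mutant expression and the chromosome that carries the allele cannot be told apart for a gene at this distance.

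*Cldn14*, a claudin of tight junctions on chromosome 16, was one of 3 genes whose values did not overlap between the groups, a pattern found in 0.0087% of the 34493 genes. It was 0.554 to 1.26 CPM in WT + IPTG, with a median of 1.13 CPM, and 1.93 to 3.96 CPM in LacQ140, with a median of 2.98 CPM. Its log2 fold change was 1.49 ± 0.19 (adjusted p = 6.1e-07). The other risen gene without overlap was *Slc45a3*, a transporter of the sugar carrier family that oligodendrocytes express, at 0.0857 to 0.330 CPM in WT + IPTG and 0.366 to 0.914 CPM in LacQ140. These levels are low, and its log2 fold change of 1.86 ± 0.30 (adjusted p = 0.00020) carries a wide error. Among the 23 claudins tested, *Cldn14* was the only one called (4.35%, beside 0.0899% of all genes).

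*Enpp6* and *Chdh* both act on choline. *Enpp6*, a choline phosphodiesterase known as a marker of newly formed oligodendrocytes, had a median of 4.67 CPM in WT + IPTG (3.98 to 8.05) and 9.27 CPM in LacQ140 (6.44 to 12.7). All but 3 LacQ140 libraries lay above every WT + IPTG library, and the log2 fold change was 0.85 ± 0.13 (adjusted p = 0.00012). *Chdh*, the mitochondrial choline dehydrogenase, had a median of 1.51 CPM in WT + IPTG (1.24 to 2.24) and 3.26 CPM in LacQ140 (1.58 to 4.92). LacQ140 F4 alone stayed within the WT + IPTG range, and the log2 fold change was 0.99 ± 0.18 (adjusted p = 0.0023).

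The remaining risen genes were *Cd82*, a tetraspanin of the cell surface, *Smoc1*, a secreted calcium-binding matrix protein, and *Atp10b*, a lipid flippase. *Cd82* rose from a median of 12.6 CPM (10.2 to 14.999) to 17.6 CPM (14.7 to 21.3), with 8 LacQ140 libraries above all WT + IPTG libraries (log2 fold change 0.49 ± 0.11, adjusted p = 0.032). *Smoc1* rose from a median of 5.66 CPM (3.59 to 9.61) to 8.36 CPM (6.98 to 11.3), where WT + IPTG M5 overlapped most LacQ140 libraries (0.62 ± 0.14, adjusted p = 0.032). *Atp10b* was under 1 CPM in most libraries, at a mean of 0.307 ± 0.164 CPM in WT + IPTG and 0.786 ± 0.290 CPM in LacQ140 (SD, n = 10).

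The fallen gene with the smallest p was *Tsc22d3*, a leucine zipper protein on chromosome X that glucocorticoids induce. It ranged from 159 through a median of 196 to 226 CPM in WT + IPTG and from 98.6 through 119 to 159.9 CPM in LacQ140. All LacQ140 libraries but M4 lay below all WT + IPTG libraries, and the log2 fold change was -0.66 ± 0.11 (adjusted p = 0.00020). *Fam83d*, a protein of the mitotic spindle, fell from a median of 1.91 CPM (1.197 to 2.94) to 0.740 CPM (0.538 to 1.36), by 1.23 ± 0.21 on the log2 scale (adjusted p = 0.00091). *Smim3*, a small membrane protein, was the only fallen gene whose groups did not overlap. It was 32.4 to 52.9 CPM in WT + IPTG, with a median of 41.7 CPM, and 16.5 to 31.7 CPM in LacQ140, with a median of 25.8 CPM (-0.74 ± 0.13, adjusted p = 0.0018).

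Myelin and glial genes were among the fallen ones. *Mal*, a proteolipid of compact myelin, fell from a median of 474 CPM (389 to 706) to 347 CPM (304 to 429), with 9 LacQ140 libraries below all WT + IPTG libraries (-0.49 ± 0.09, adjusted p = 0.0018). *Tspan2*, a tetraspanin of oligodendrocytes, had means of 63.3 ± 5.25 CPM in WT + IPTG and 49.8 ± 6.12 CPM in LacQ140 (SD, n = 10; adjusted p = 0.026). *Il33*, a nuclear alarmin of glia, fell from a median of 81.4 CPM (63.9 to 119) to 57.9 CPM (48.4 to 71.8), by 0.50 ± 0.10 (adjusted p = 0.015). *Aldoc* and *Gjb6*, an aldolase and a connexin of astrocytes, fell by 0.27 and 0.36 on the log2 scale (adjusted p = 0.038 and 0.032). Of 13 oligodendrocyte markers 1 fell and none rose, with a median log2 fold change of 0.05, and of 10 astrocyte markers 1 fell and none rose, with a median of 0.04, beside 0.01 over the 14675 genes with a mean of at least 1 CPM. The share called was 7.69% and 10.0% of these lists and 0.0899% of all genes. In bulk tissue, fewer cells of a type and less RNA per cell cannot be told apart.

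Genes known for roles at synapses and in signaling were also called. *Ptgs2*, the inducible cyclooxygenase of active neurons, fell from a median of 12.7 CPM (10.2 to 15.9) to 9.77 CPM (6.22 to 10.96), by 0.49 ± 0.10 (adjusted p = 0.016). *Homer1*, a scaffold of postsynaptic glutamate receptors, fell by 0.43 ± 0.09, *Camk2n1*, an inhibitor of CaM kinase II, by 0.45 ± 0.10, and *Schip1*, a protein of the axon initial segment, by 0.46 ± 0.10. *Abhd6*, which hydrolyzes the endocannabinoid 2-arachidonoylglycerol, fell by 0.35 ± 0.07, and *Spred1*, a brake on Ras signaling, by 0.32 ± 0.07. The adjusted p-values of these 5 lay between 0.028 and 0.039. *Pdp1*, the phosphatase that activates pyruvate dehydrogenase, fell from a median of 211 CPM (149.8 to 268) to 154 CPM (136 to 189), with 4 LacQ140 libraries below all WT + IPTG libraries (-0.44 ± 0.09, adjusted p = 0.016). *Homer1* was also the only one of 15 immediate early genes called (6.67%), and none of the 22 glutamate receptor genes was, with a median of 0.08, beside 0.0899% of all genes.

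Of the listed groups, endoplasmic reticulum chaperones held 2 of the called genes. *Hspa5* (BiP) is the main chaperone of the endoplasmic reticulum lumen, and *Sdf2l1* acts with it. *Hspa5* had a median of 284 CPM in WT + IPTG (179.7 to 437) and 203 CPM in LacQ140 (172 to 312), and fell by 0.45 ± 0.10 (adjusted p = 0.043). *Sdf2l1* had a median of 29.2 CPM in WT + IPTG (13.3 to 49.4) and 15.9 CPM in LacQ140 (12.0 to 26.7), and fell by 0.73 ± 0.15 (adjusted p = 0.024). Of the 12 chaperones, 2 fell and none rose, and all 12 had a log2 fold change below 0, with a median of -0.16. Over all genes tested 0.0899% were called, and the median over genes with a mean of at least 1 CPM was 0.01. The WT + IPTG females held the high values. *Sdf2l1* was 31.1 to 49.4 CPM in the 5 females and 13.3 to 27.2 CPM in the 5 males of that group, and the LacQ140 mice of both sexes overlapped those males. Within sex, *Sdf2l1* fell by 0.96 ± 0.18 in females and by 0.36 ± 0.18 in males, a difference with an unadjusted p of 0.022 and an adjusted p of 0.57. The mean of *Sdf2l1* was 17.5 CPM in WT mice without IPTG, and its log2 fold change in LacQ140 against those mice was -0.07 (adjusted p = 0.94).

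The promoters of both chaperones are shown because genes of this list are known to carry a common control element, which was found in one of them and not in the other. The endoplasmic reticulum stress element, read as CCAAT and CCACG with 9 bases between them, was searched on both strands from 250 bases before to 50 bases after the annotated start. The capitals mark its fixed letters in these RefSeq promoters (GRCm38.p6), printed 5′ to 3′ on the strand of the gene. *Hspa5* is chr2:34771840-34772139, plus strand, and *Sdf2l1* is chr16:17132334-17132633, minus strand.
Hspa5: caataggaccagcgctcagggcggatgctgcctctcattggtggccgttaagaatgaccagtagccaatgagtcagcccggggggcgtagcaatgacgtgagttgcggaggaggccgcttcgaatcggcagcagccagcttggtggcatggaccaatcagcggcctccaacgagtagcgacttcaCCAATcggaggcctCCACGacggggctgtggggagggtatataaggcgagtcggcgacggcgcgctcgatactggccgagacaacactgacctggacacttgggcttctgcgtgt
Sdf2l1: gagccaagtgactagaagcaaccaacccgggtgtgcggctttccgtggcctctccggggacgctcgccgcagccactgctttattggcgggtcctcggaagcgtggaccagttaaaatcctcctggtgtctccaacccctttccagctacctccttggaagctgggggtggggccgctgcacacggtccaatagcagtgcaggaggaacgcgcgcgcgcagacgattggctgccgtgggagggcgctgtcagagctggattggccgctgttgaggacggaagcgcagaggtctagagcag
The element starts 65 bases before the *Hspa5* start, and the full pattern does not occur on either strand of the *Sdf2l1* window. It occurs in 7 of the 10 chaperone genes with a RefSeq promoter and in 37 of all 27025 genes with one (0.137%). Of the 31 called genes 21 had a promoter, and *Hspa5* was the 1 with the element.

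**Figure D1:**
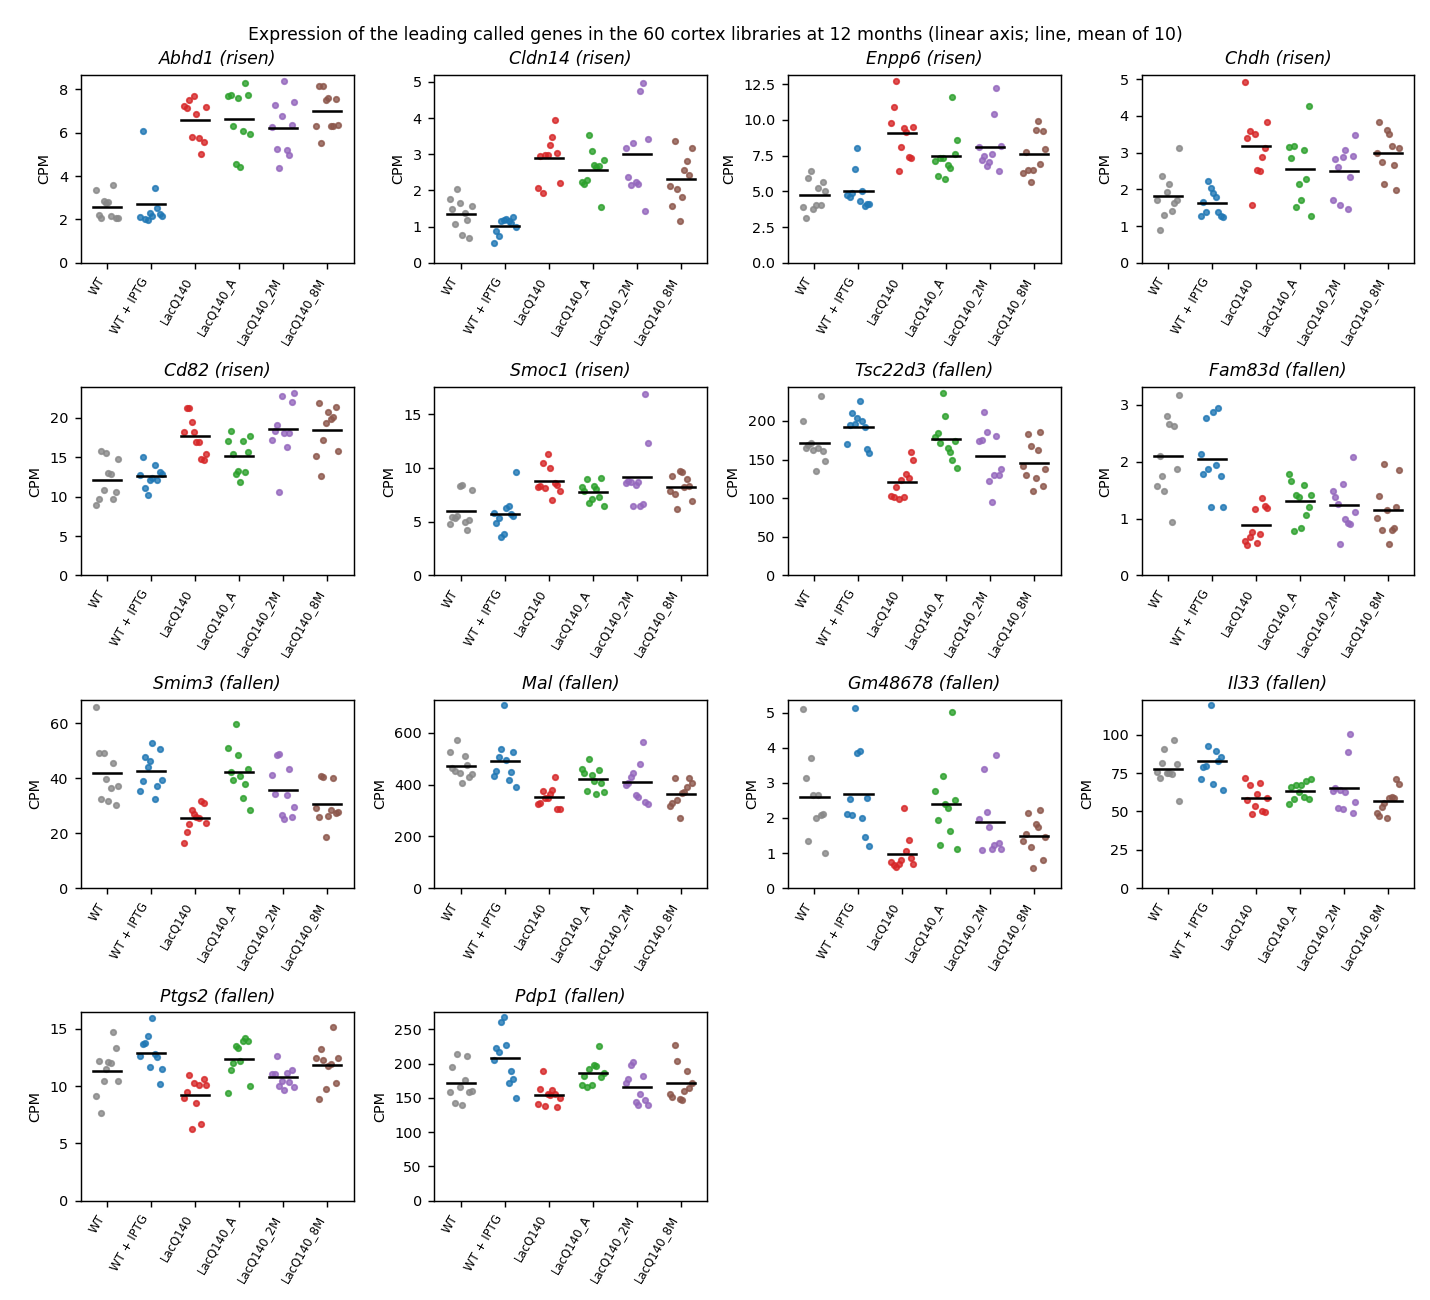
Expression in CPM (linear axis from 0) of the risen and fallen genes with the smallest p-values and a mean of at least 1 CPM in the higher group, in the 60 cortex libraries at 12 months. Each point is a mouse and each line the mean of 10. *Cldn14* and *Smim3* separate LacQ140 from WT + IPTG without overlap, and 1 WT + IPTG mouse has *Abhd1* at 6.08 CPM.

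The last called genes were of low or uncertain measurement. *Mettl11b*, a protein methyltransferase, fell from a mean of 2.29 ± 0.588 to 1.16 ± 0.442 CPM, and *Srarp*, a regulator of steroid receptors, from 5.94 ± 1.51 to 3.69 ± 0.994 CPM (SD, n = 10; adjusted p = 0.028 and 0.047). The noncoding *Gm46447* fell from 1.10 ± 0.316 to 0.569 ± 0.178 CPM, and *Gm19439*, of unsettled annotation, from 43.6 ± 8.91 to 23.4 ± 8.21 CPM. *Gm48678* fell from a median of 2.32 CPM (1.21 to 5.14) to 0.772 CPM (0.593 to 2.28), by 1.44 ± 0.27 (adjusted p = 0.0047). It is annotated antisense, and whether the counting used strand is not given in the sources used here. *Gm2446* is a pseudogene whose reads may belong to a near-identical copy. It was at 0 in 3 WT + IPTG libraries and 9 LacQ140 libraries and reached 25.7 CPM in WT + IPTG F3, so its fitted log2 fold change of -8.27 rests on few libraries.

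The WT groups with and without IPTG give each fallen gene a second level to be read against. The comparison of WT + IPTG with WT called none of the 34493 genes by edgeR, with 5.80% of them at an unadjusted p under 0.05, and 15 by DESeq2. The test against WT shares the 10 LacQ140 libraries with the one above. Against WT 41 genes were called, among them 12 of the 31, 6 of the 8 risen and 6 of the 23 fallen, so 17 fallen genes were not called against WT. *Abhd1*, *Cldn14*, *Enpp6*, *Smim3*, *Mal* and *Tsc22d3* had log2 fold changes against WT of 1.35, 1.10, 0.94, -0.72, -0.43 and -0.50. *Pdp1*, *Homer1*, *Abhd6*, *Spred1* and *Hspa5* had values of -0.16, -0.08, -0.12, 0.00 and -0.08, and their means in WT + IPTG lay above those in WT by 0.28, 0.34, 0.23, 0.32 and 0.37 on the log2 scale. The adjusted p-values of the latter differences were between 0.17 and 0.48, so neither an IPTG effect on these genes nor its absence was shown.

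Some of the fallen genes are compared here between LacQ140_A and LacQ140, and these comparisons share the LacQ140 libraries too. How many of the 23 fallen genes passed is not given here. The mean slope on transcript length, given with the libraries' slopes, was -0.05 in LacQ140_A and 0.05 in LacQ140, and its part in these values was not tested. LacQ140_A mice never had IPTG and LacQ140 mice did, so IPTG and m*Htt* level cannot be told apart here. *Smim3* had a mean of 42.4 CPM in LacQ140_A against 42.5 CPM in WT + IPTG, and it was higher in LacQ140_A than in LacQ140 by 0.74 on the log2 scale (adjusted p = 0.0069). Its means in LacQ140_2M and LacQ140_8M were 35.7 and 30.4 CPM, and it was 30.2 to 66.0 CPM in WT without IPTG. *Tsc22d3* and *Camk2n1* were higher in LacQ140_A than in LacQ140 by 0.54 and 0.46 (adjusted p = 0.020 and 0.043). Other fallen genes stayed closer to LacQ140. *Hspa5* was 187 to 285 CPM in LacQ140_A and 172 to 312 CPM in LacQ140, beside 179.7 to 437 CPM in WT + IPTG. *Sdf2l1* was 16.6 to 27.1 CPM in LacQ140_A and 12.0 to 26.7 CPM in LacQ140, beside 13.3 to 49.4 CPM in WT + IPTG. *Cldn14* and *Enpp6* were not called between these groups, at -0.17 and -0.27 (adjusted p = 0.72 and 0.34).

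Libraries differed along an axis that follows transcript length. For each library, log2 CPM minus the mean of the 60 libraries was regressed on log2 length of the longest annotated transcript, over 14654 genes with a mean of at least 1 CPM. The resulting slope was -0.01 ± 0.09 in WT + IPTG, from -0.17 to 0.10, and 0.05 ± 0.08 in LacQ140, from -0.08 to 0.19 (SD, n = 10). A positive slope means that long transcripts took a larger share of the library. The groups overlapped, and the difference of 0.06 was within their spread (two-sided permutation test, 100000 resamples, p = 0.166). It was 0.13 in females (exact permutation test, n = 5 a group, two-sided p = 0.063) and -0.02 in males (same exact test, p = 0.64). Genes up to 1000 nucleotides were above their mean by a median of 0.40 (log2) in WT + IPTG F5 and below it by 0.32 in LacQ140 F1, and genes over 8000 nucleotides did the reverse, at -0.25 and 0.36.

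**Figure D2:**
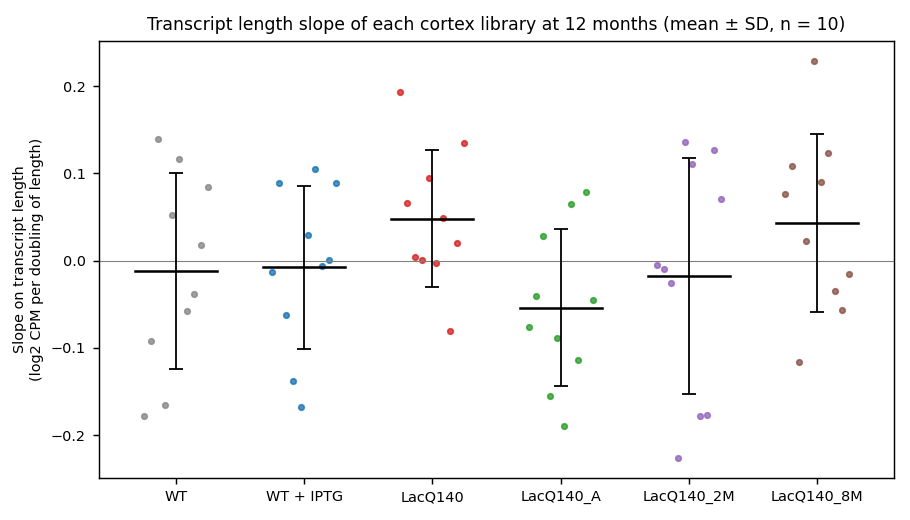
Slope of log2 CPM on log2 transcript length (y axis, log2 CPM per doubling of length) for each of the 60 cortex libraries by group, with the mean and SD of 10. LacQ140 lies at 0.05 ± 0.08 and WT + IPTG at -0.01 ± 0.09, and all 6 groups overlap.

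The slope followed the leading axis of variation within groups. As deviations from the group means over 60 libraries, it correlated with the first principal component of the residuals, which held 35.1% of the residual variance (Pearson r = 0.956, Spearman rho = 0.961; both permutation p = 1e-05, the smallest 100000 resamples can give; adjusted p = 2e-05 over 6 relations). Without the 2 libraries farthest from the median slope, r was 0.950. It also correlated with the slope on GC content (r = 0.825, rho = 0.789, same permutation p; 0.800 without the 2) and with the share of counts in the 50 leading genes (r = -0.721, rho = -0.658, same permutation p; -0.706 without the 2). With total counts and genes detected the relation over 60 libraries was near 0 (total counts, r = 0.0278, rho = 0.0191, permutation p = 0.834 and 0.884, adjusted p = 0.930 and 0.998; r = 0.0583 without the 2; genes detected, r = -0.0118, rho = -0.000333, permutation p = 0.930 and 0.998; r = 0.0422 without the 2). Within the 20 libraries of LacQ140 and WT + IPTG, r was 0.916 with the first component, 0.572 with the GC slope, -0.378 with the share of the 50 leading genes, 0.231 with total counts and 0.480 with genes detected, given as descriptions. Against the slope of the striatal library of the same mouse, over 57 mice, r was -0.147 and rho -0.123 (permutation p = 0.276 and 0.359, adjusted p = 0.414 and 0.539; r = -0.0570 without the 2). The slope is read from the same counts as the genes it is set against, and what gave rise to it was not tested.

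The fold change of LacQ140 over WT + IPTG by transcript length restates the difference in slope between these groups. That difference was 0.06 (two-sided permutation test, p = 0.166), and -0.02 in males, so the values below are a description. The median log2 fold change was -0.15 for the 824 genes up to 1000 nucleotides, -0.06 for 2441 longer genes up to 2000 nucleotides, 0.01 for the next 5897 up to 4000, 0.06 for the next 4641 up to 8000, and 0.07 for the 851 genes beyond. Of the shortest class, 173 genes fell and 8 rose at an unadjusted p under 0.05. Across the 14654 genes, which are not independent replicates, Spearman's rho between length and fold change was 0.295. Over those of these genes that were also tested there, it was -0.210 for LacQ140 against WT + IPTG in the 6-month cortex and -0.106 in the 12-month striatum, so the direction with length was not shared.

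Ribosomal protein and respiratory chain genes gave no call in either fit, but their medians differed between the fits. The 82 cytosolic ribosomal protein genes tested had a median log2 fold change of -0.20. The 3 with the smallest p, *Rpl22l1*, *Rpl34* and *Rps12*, were at -0.45, -0.41 and -0.39 (adjusted p between 0.47 and 0.50). With the slope as a covariate their values became -0.19, -0.15 and -0.15 and the median -0.05. The 84 oxidative phosphorylation subunits went from a median of -0.19 to -0.06, and *Ndufb6*, *Ndufab1* and *Uqcrc2* from -0.37, -0.23 and -0.25 to -0.16, -0.13 and -0.12.

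**Figure D3:**
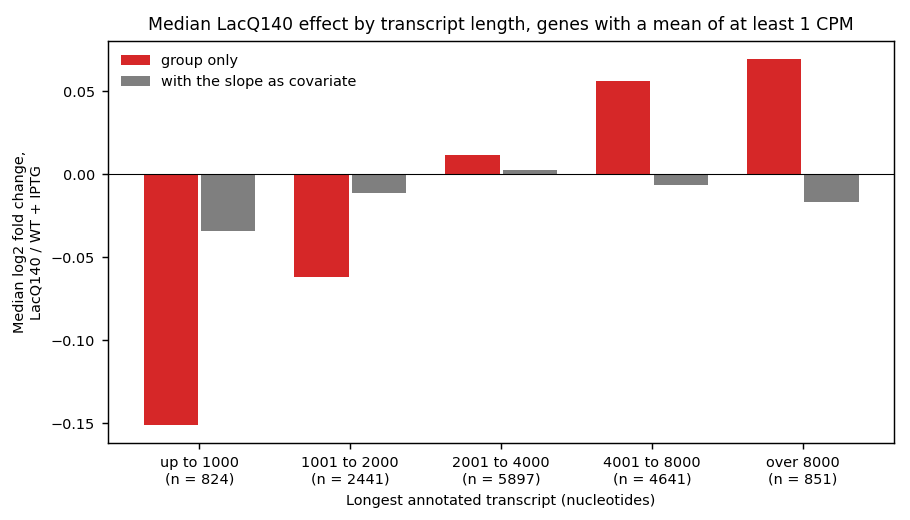
Median log2 fold change of LacQ140 over WT + IPTG (y axis) in 5 classes of transcript length (x axis, nucleotides, number of genes below), for genes with a mean of at least 1 CPM. Red bars are from the groups alone and run from -0.15 to 0.07, and grey bars are with the slope as a covariate and run from -0.03 to 0.00. The covariate is the slope on length itself, so grey bars near 0 follow from the fit.

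With the slope of each library as a covariate, 156 genes (0.452%) were called, 54 risen (0.157%) and 102 fallen (0.296%), and all 31 genes above were among them. The same covariate called 154 genes between WT + IPTG and WT, where none was called without it, and that comparison shares the 10 WT + IPTG libraries. Leaving out M1 or F2 of WT + IPTG gave 95 or 98 calls for LacQ140. It was 39 when length was removed as a smooth offset per library in place of the covariate, and 102 when a slope on GC content was added. The median SE over genes with a mean of at least 1 CPM went from 0.112 to 0.0786, and that of the 31 genes from 0.132 to 0.0917. The SE was smaller for 30 of the 31. Apart from *Gm2446*, the fold change of none of these 31 genes moved by more than 0.23 on the log2 scale.

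Of the 125 genes called only with the covariate, 107 had a mean of at least 1 CPM and 18 were below it. By p, the first risen genes were *Gm9726* and *Mrip-ps*, which were at 0 in all WT + IPTG libraries and in 9 and 8 LacQ140 libraries, and *Gng11*, a G protein γ subunit. *Gm13502* was at 0 in all LacQ140 libraries and 9 WT + IPTG libraries, and no fold is given for these 3 low genes. *Gng11* had medians of 40.02 CPM (25.6 to 78.1) in WT + IPTG and 47.5 CPM (41.9 to 72.1) in LacQ140, and its log2 fold change went from 0.20 ± 0.16 to 0.43 ± 0.08 (adjusted p = 0.75 and 0.00060). Its CPM ranges overlapped almost wholly.

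The first fallen genes by p included *Glul* and *Dio2*. *Glul*, the glutamine synthetase of astrocytes, had medians of 1372 CPM (958 to 1854) in WT + IPTG and 1158 CPM (1006 to 1253) in LacQ140. Its log2 fold change went from -0.27 ± 0.11 to -0.36 ± 0.05 (adjusted p = 0.46 and 3.2e-06). *Dio2*, the astrocyte deiodinase that makes active thyroid hormone, went from -0.48 ± 0.13 to -0.58 ± 0.09 (adjusted p = 0.14 and 2.5e-05), with medians of 93.2 CPM (72.5 to 112) and 67.2 CPM (49.6 to 84.4). *Htt* was called too, at -0.29 ± 0.07 (adjusted p = 0.015). At 13215 nucleotides it has the longest transcript among the fallen genes of this fit with a mean of at least 1 CPM.

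**Figure D4:**
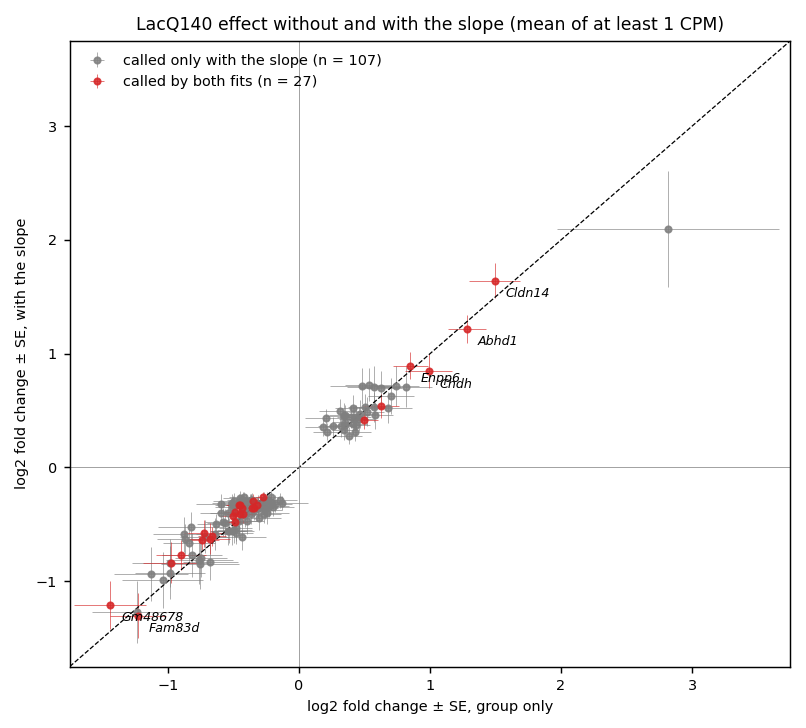
Log2 fold change ± SE of LacQ140 over WT + IPTG from the groups alone (x axis) and with the slope as a covariate (y axis), for called genes with a mean of at least 1 CPM and without *Gm2446*. The 27 genes called by both fits (red) and the 107 called only with the slope (grey) have the same sign in both fits. Genes off the dashed line of equal values include *Gm5641* (grey, far right; 2.82 and 2.10), *Gm14435* (-0.82 and -0.53) and *Gng11* (0.20 and 0.43).

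The listed groups were read in both fits. The median log2 fold change of the 14675 genes with a mean of at least 1 CPM was 0.01 without and -0.01 with the covariate. Of all genes tested, 0.452% were called and 0.296% fell with the covariate. With it, 4 of the 12 chaperones fell, since *Manf* (-0.31, adjusted p = 0.028) and *Pdia4* (-0.37, adjusted p = 0.018) joined *Hspa5* and *Sdf2l1*. Of the oligodendrocyte markers, *Mobp* (-0.35, adjusted p = 0.00067) and *Cldn11* (-0.31, adjusted p = 0.037) were among those that joined *Mal*. *Opalin*, of myelinating oligodendrocytes, rose by contrast (0.49, adjusted p = 0.0051). The 13 markers together had a median of 0.00, with 7 below 0, and their summed level was 8176 to 12137 CPM in WT + IPTG and 7940 to 10676 CPM in LacQ140. Of the 15 immediate early genes, *Egr3* (-0.41, adjusted p = 0.0022) joined *Homer1*, and the median went from -0.04 to -0.13. The next by p, *Npas4*, was at -0.41 and then -0.18 (adjusted p = 0.60 and 0.91).

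Genes that the study shows in striatum were measured in cortex as well. The 7 genes (*Pde10a*, *Drd1*, *Drd2*, *Ppp1r1b*, *Adcy5*, *Penk*, *Scn4b*), known for roles in striatal signaling, had a median of -0.25 and then -0.22, and only *Penk*, an opioid precursor, was called with the covariate, at -0.47 ± 0.11 (adjusted p = 0.024). *Drd1*, *Drd2* and *Pde10a* were at -0.31, -0.68 and -0.25 without it (adjusted p between 0.45 and 0.57). The 13 striatal spiny neuron markers, which include all 7, had a median of -0.17. The 4 neurofilament subunits gave no call, with medians of 0.07 and -0.11, and *Nefh* and *Ina* were at 0.18 and 0.11 without the covariate. Among 13 heat and cold inducible genes only *Cirbp*, a cold-inducible RNA-binding protein, was called, with the covariate (0.37, adjusted p = 0.043), and the medians were -0.06 and -0.15. The chaperone cofactors *Chordc1* and *Dnajb1* of that list were at -0.42 and -0.28 without the covariate (adjusted p = 0.15 and 0.20). No call was made in either fit among 16 circadian clock genes (medians 0.00 and -0.06), 22 glutamate receptors (0.08 and -0.02), 21 cholesterol synthesis genes (-0.02 and -0.02) or 18 developmental transcription factors (0.24 and 0.21). Their members with the smallest p had log2 fold changes without the covariate of -0.35 and -0.25 for the clock genes *Nr1d2* and *Per3*, 0.26 and -0.17 for the receptors *Grik4* and *Grm3*, and -0.23 and -0.22 for the sterol enzymes *Ebp* and *Msmo1*. The developmental factors *Onecut1* and *Wt1* had means of 0.017 and 0.310 CPM, too low for their folds to be read. Only 2 of these 18 factors had a mean of at least 1 CPM, with medians of 0.16 and 0.04.

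Cell type markers were read in the same way. Lists of 16 projection neuron genes (medians 0.04 and -0.04), 12 interneuron genes (0.01 and -0.04), 5 oligodendrocyte precursor genes (0.06 and -0.07), 12 microglial genes (0.04 and 0.04), 11 vessel genes (0.19 and 0.05) and 6 meningeal genes (0.00 and 0.01) gave no call in either fit. Over the 4 meningeal genes with a mean of at least 1 CPM the medians were -0.17 and -0.11. Of the astrocyte markers, *Slc1a2*, the main glutamate transporter of astrocytes, joined *Aldoc* with the covariate (-0.31, adjusted p = 0.0020), and the list medians were 0.04 and -0.09. Markers of neighbouring tissue differed among single libraries. The 9 choroid plexus markers summed to 5.48 to 1336 CPM in WT + IPTG and 12.2 to 1113 CPM in LacQ140 (median log2 fold change 0.62, none called). Over the 7 of them with a mean of at least 1 CPM the median was 0.43. The 5 blood genes summed to 852 to 7020 CPM and 299 to 2089 CPM (median -0.81), and *Hbb-bs* and *Hbb-bt*, globins, fell with the covariate by 0.84 and 0.99 (adjusted p = 0.030 and 0.028). Of the 6 pituitary markers only 1 had a mean of at least 1 CPM, so the list medians of 0.72 and 0.75 rest on low genes. Their sum had a median of 3.53 CPM in WT + IPTG and 3.40 CPM in LacQ140. *Prl* was called with the covariate, with means of 0.250 ± 0.319 CPM (WT + IPTG) and 1.14 ± 2.07 CPM (LacQ140; SD, n = 10). No marker of these lists was at 0 in all 20 libraries, and the part of neighbouring tissue in the calls was not tested.

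Genes near *Htt* were counted by position. Of 2312 genes tested on chromosome 5, 1 was called (0.0433%), and of 354 within 10 Mb of *Htt*, the same 1 (0.282%), *Abhd1*, beside 0.0899% of all genes. With the covariate 13 genes of the chromosome were called, 3 of them among the 354, beside 0.452% of all genes. Besides *Abhd1* and *Htt*, *Trim54* was called, a muscle ring finger protein 3.65 Mb away, with means of 1.25 ± 0.577 CPM in WT + IPTG and 0.567 ± 0.230 CPM in LacQ140 (SD, n = 10; -0.94 ± 0.24, adjusted p = 0.039). Unlike *Abhd1*, *Trim54* differed between groups with the allele. It was 0.173 to 0.844 CPM in LacQ140, 1.02 to 2.15 CPM in LacQ140_A, 0.156 to 1.87 CPM in LacQ140_2M and 0.139 to 1.88 CPM in LacQ140_8M.

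The same contrast in other libraries was not used to choose the 31 genes. In the 6-month cortex, from other mice, 317 of 35987 genes were called (0.881%). Of the 31 genes, 9 were called there (29.0% of the 31 and 2.84% of the 317), all in the same direction, and 30 had the same sign, the exception being *Gm2446*. The 9 were *Abhd1* (1.65 ± 0.18), *Cldn14* (1.09 ± 0.21), *Slc45a3* (0.97 ± 0.20), *Fam83d* (-0.74 ± 0.18), *Gm48678* (-0.98 ± 0.20), *Srarp* (-0.82 ± 0.16), *Homer1* (-0.54 ± 0.12), *Hspa5* (-0.40 ± 0.07) and *Il33* (-0.37 ± 0.09). *Chdh*, *Cd82*, *Smoc1* and *Camk2n1* were near 0 at 6 months, at 0.19, 0.05, 0.03 and -0.06. The difference of the effect between ages passed an adjusted p of 0.05 for 1 gene of 37355, *Gm2446* (adjusted p = 0.049), with 2275 at an unadjusted p under 0.05. All 12-month libraries carry 1 batch label and the 6-month libraries another, so age and batch cannot be told apart.

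In the striatum of the same mice, where 9 LacQ140 libraries were used, 3340 of 35386 genes were called (9.44%). Of the 31 cortical genes 28 were called there (90.3% of the 31 and 0.838% of the 3340), 27 in the same direction. Differences between single mice can recur in both tissues, as *Abhd1* did in WT + IPTG F2. The 28 genes are therefore not a replication in separate animals. *Abhd6*, *Schip1* and *Gm2446* were not called in striatum. *Fam83d*, *Smoc1*, *Mal*, *Enpp6* and *Chdh* had striatal log2 fold changes of -1.63, 0.91, -0.45, 0.81 and 0.87. The effect differed between tissues, at an adjusted p under 0.05, for 953 of 37363 genes (2.55%) and for 4 of the 31. The libraries of both tissues come from largely the same mice, which this fit did not model, so its p-values treat them as separate animals. *Ptgs2* fell in cortex and rose in striatum by 0.52 ± 0.15, with a difference, cortex minus striatum, of -0.99 ± 0.18 (adjusted p = 6.1e-05). *Pdp1* and *Homer1* fell further in striatum, by 1.01 ± 0.10 and 0.93 ± 0.11, with differences of 0.59 ± 0.14 and 0.52 ± 0.15 (adjusted p = 0.0046 and 0.029). The fourth was *Gm2446*.

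**Figure D5:**
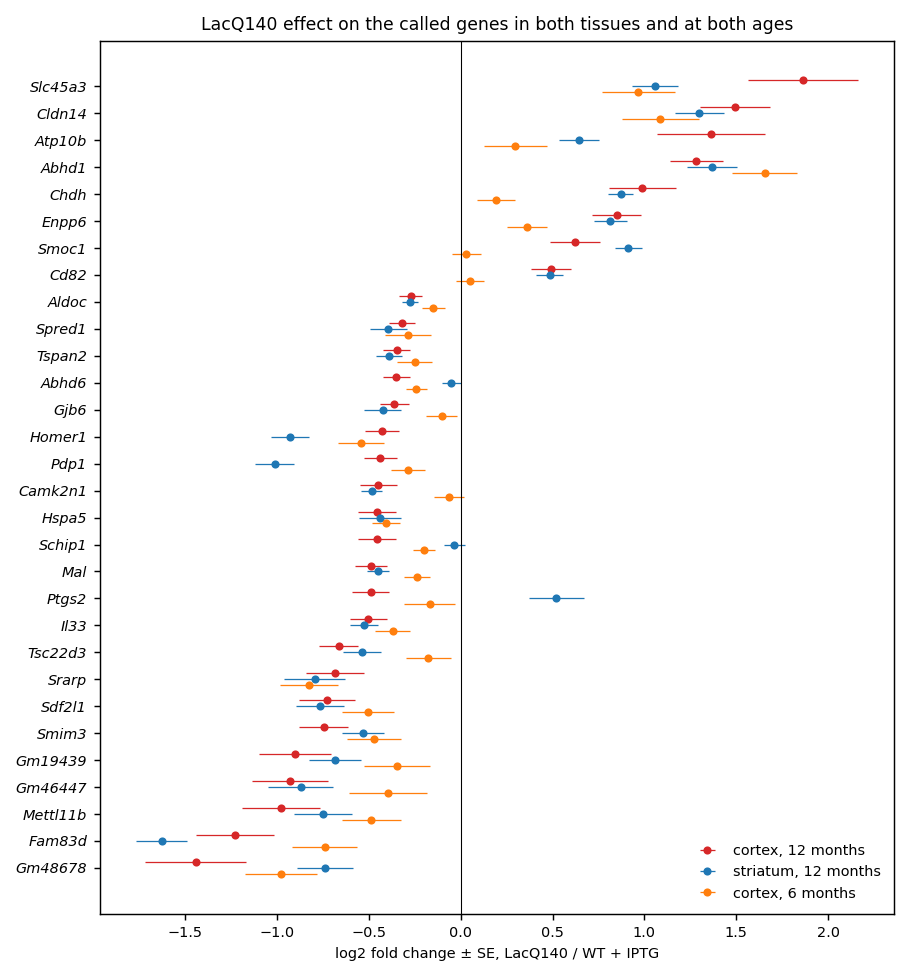
Log2 fold change ± SE of LacQ140 over WT + IPTG (x axis) for 30 called genes, without *Gm2446*, in the 12-month cortex (red), the 12-month striatum (blue) and the 6-month cortex (orange). *Ptgs2* is the only gene with opposite signs in cortex and striatum, and *Pdp1* and *Homer1* lie further from 0 in striatum.

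The effect did not differ between the sexes for any gene at an adjusted p under 0.05 (edgeR, 34493 genes, 2956 at an unadjusted p under 0.05), and all 31 genes had the same sign in females and in males. Fitted within a sex, 9 genes were called in females and 4 in males, with 5 mice a group.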

How the data were processed

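RNA was sequenced by the authors (NovaSeq, paired-end) from the cerebral cortex and striatum of single mice. The deposited values are expected counts per gene with no normalization, and 30.6% of nonzero values in the 12-month cortex were not whole. They were rounded to whole numbers here. The genome build was GRCm38 per the submitters' processing notes, and the aligner and quantifier are not given in the sources used here. Every count column matched a labelled sample, so 0 columns were left unassigned. Counts summed to between 33391114 and 44397947 per library, and the depth limits genes under about 1 CPM.

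The 60 cortex libraries at 12 months were fitted together with edgeR 4.0.16 (R 4.3.3), over genes with at least 1 count, by the quasi-likelihood test with TMM scaling and Benjamini-Hochberg adjustment over all genes tested. This count test was the main one in place of DESeq2, which is an alternative. A call needed an adjusted p under 0.05 and a change of at least 20%. CPM values are counts relative to the TMM-scaled library size, the SE is that of the log2 fold change, and intervals cover the spread between mice only. Tissue, age and sex differences were interaction terms. Transcript lengths and gene names were taken from GENCODE, which matched 54495 of 54532 genes, and promoters from RefSeq. The tests were tested on simulated data. Alternatives were DESeq2 1.42.0, limma 3.58.1 voom, other filters, scalings and controls, each sex alone, a replicate block, covariates for length and GC content, and each library left out. Slopes and permutation tests used Python 3.11.15 with SciPy 1.17.1.

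Named genes were *Htt*, the called genes, the 3 risen and 3 fallen genes with the smallest p called only with the slope, and 2 to 4 members of each list with the smallest p. Other genes named were called with the slope and were chosen after their values were seen. The members and lists were chosen with earlier results of these data known. Columns of samples outside these comparisons were not used here. The values of 1 further list member called with the slope are not reported here.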

Additional observations from a re-analysis of the deposited data

Results flagged for a closer look

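Single mice stood far from the other 9 of their group (Dixon's test at 95%) in 14 of 66 groups of values over the named genes, where chance flags about 1 in 20 groups. In WT + IPTG these were *Abhd1* in F2 at 6.08 CPM, *Mal*, *Il33* and *Atp10b* in F5 at 706, 119 and 0.700 CPM, *Gm19439* in M1 at 62.9 CPM, *Smoc1* in M5 at 9.61 CPM, *Srarp* in M4 at 9.60 CPM and *Gm2446* in F3 at 25.7 CPM. In LacQ140 they were *Pdp1* and *Homer1* in F3 at 189 and 138 CPM, *Gm48678* in M1 at 2.28 CPM, *Spred1* in M2 at 112 CPM, *Atp10b* in F2 at 1.51 CPM and *Gm2446* in M3 at 0.145 CPM. WT + IPTG F5 also had the lowest slope on transcript length of its group, and the part of the slope in its 3 values was not tested.

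The LacQ140 effect differed between cortex and striatum for *Ptgs2*, by -0.99, for *Pdp1*, by 0.59, for *Homer1*, by 0.52, and for *Gm2446*, by -7.94 (log2, cortex minus striatum, interaction term of edgeR). It differed between 12 and 6 months for *Gm2446*, by -12.40. The values of *Gm2446* rest on libraries at 0 in most LacQ140 mice.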

How the results depend on the processing

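The 31 calls, 8 risen and 23 fallen, became 64, 25 and 39 with DESeq2, 75, 30 and 45 with limma voom and sample weights, and 55, 18 and 37 after filterByExpr. They were 441, 98 and 343 when only both compared groups were fitted, 65, 29 and 36 against both WT groups pooled, and 20 genes rose against WT without IPTG. In females they were 9, 4 and 5, and in males 4, 3 and 1. The slope as covariate gave 156, 54 and 102, or 209, 71 and 138 with only both compared groups, 102, 34 and 68 with a GC slope added, and 142, 52 and 90 with the slope on median length. Leaving out 1 library gave 15 to 47 calls, 5 to 12 risen, 10 to 37 fallen, 95 to 180 with the slope, and slope differences of 0.0377 to 0.0698. The 156 calls with the slope became 39 with a smooth length offset. The slope difference was -0.0194 in males. The log2 fold change of *Htt* was 0.13 in females. IPTG calls were 0, 15 with DESeq2 and 154 with the slope. The 1 gene that differed between ages was lost with filterByExpr (0) and the slope (0). The cause of these changes was not tested.

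The replicate numbers did not pair the mice, since same-number correlations ran from -0.146 to 0.315 and 0 of 10 LacQ140 libraries were closest to their own number. With a replicate block 29 genes were called, 8 risen and 21 fallen, and with the replicate block and the slope 75, 27 and 48. Robust fitting, RLE scaling, sex as a covariate and no bound on fold gave 24, 28, 32 and 31 calls. Over the named genes, 497 of 608 alternative values kept direction and side of the threshold, 105 lost the call, 5 gained it and 1 reversed.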

Other observations

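Genes that glucocorticoids induce were listed after the values of *Tsc22d3* were seen, so their values are a description. Of 16 such genes *Tsc22d3* fell and none rose, 14 had a log2 fold change below 0, and the median was -0.21. With the slope as a covariate 4 fell, all 16 were below 0 and the median was -0.26. Over all genes tested 0.0899% were called without and 0.452% with the slope, and the medians over genes with a mean of at least 1 CPM were 0.01 and -0.01. *Sgk1*, a kinase of ion transport, went from -0.54 (adjusted p = 0.11) to -0.56 (adjusted p = 0.0017), and *Hif3a*, a hypoxia-inducible factor subunit, from -0.68 to -0.83 (adjusted p = 0.0013 with the slope, edgeR). *Mt2*, a metallothionein, was at -0.29 (adjusted p = 0.35) and was not called. The summed level of the 16 genes was 853 to 1234 CPM in WT + IPTG and 660 to 1140 CPM in LacQ140.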
